A study of Mus musculus with 2 samples.

Results

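Chitinases, their enzymatically inactive relatives and the reported binding partners of Chi3l1 were examined at the RNA level in Th1 cells from wild type (WT) and Chi3l1 knock out (KO) mice. The 8 genes were chosen by name and not by a limit on their values, but earlier results of these data were known. They were the chitinase-like genes Chil1, Chil3 and Chil4, the chitinase gene Chit1, and the genes of the reported partners Il13ra2, Tmem219 and Lgals3. Il13ra1, the gene of the other IL-13 receptor chain, was included with them. All 8 of them were among the 24421 gene symbols with a value in each library, 7 had a value above 0 in at least 1 library, and 6 had more than 3 reads in at least 1 library. Chil1 is the mouse symbol for Chi3l1, the gene that was knocked out.

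Both libraries came from C57BL/6J mice, 1 library from Chi3l1+/+ and 1 from Chi3l1-/- animals. According to the study's methods, naïve CD4 T cells of young adult mice were stimulated on plates coated with antibodies to CD3 and CD28 in medium with IL-12, IL-2 and anti-IL-4 antibody, which skews them to Th1, and the knock out was in the germline, so every cell of the animal carried it. The labels do not say how long these cultures ran or whether cells of several animals were pooled. With 1 library per genotype there was no replicate check and no test between genotypes. Each value is therefore given with an exact Poisson 95% interval, and each ratio with an exact conditional binomial (Clopper-Pearson) 95% interval, on reads rebuilt from the deposited log2 values. These intervals cover counting error only. The rebuilt reads summed to 70562794 in the library labelled WT Th1 and 62884131 in the library labelled Chi3l1 KO Th1.

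Chitinases of glycoside hydrolase family 18 cleave chitin, a polymer of insects, fungi and helminths that mammals do not make. Chitinase-like proteins keep the fold and the ability to bind sugars but have lost catalysis, and they are best known as products of macrophages, neutrophils and epithelia. Chi3l1 is a secreted chitinase-like protein that has been reported to bind the IL-13 receptor chain IL-13Rα2, with the membrane protein TMEM219 as a co-receptor, and to bind galectin-3, and its levels rise in type 2 inflammation. Th1 cells make IFN-γ and are the class of helper T cell that type 2 cytokines oppose.

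The reads of the targeted gene lay in the library labelled KO. Chil1 (GRCm38 chr1:134182176-134190181, plus strand) had a log2 value of 0.94 in the library labelled WT Th1 and of 6.66 in the library labelled Chi3l1 KO Th1. These values are worth 1 read (0.0253 to 5.57) and 103 reads (84.1 to 125). The library labelled KO thus held the reads and the library labelled WT was within the 3 reads taken here as the floor. The ratio of KO to WT was 103, with an interval from 18.1 to 4101, and the difference of the deposited log2 values was 5.71, the value at rank 2 among all genes when ordered from the largest rise. Chil1 was the 1 gene of 24421 with at most 3 reads in the library labelled WT and at least 100 in the library labelled KO, against 3 genes with the reverse pattern, limits that were chosen after the values were seen. A value per gene does not show which exons the reads came from, and the sources used here do not state which exons the targeting removed. The 103 reads of the library labelled KO may therefore lie outside the deleted part, and such reads would check nothing. That limit does not touch the 1 read of the library labelled WT, since a Chi3l1+/+ genotype holds every exon. With 1 such library, however, the usual level of Chil1 in WT Th1 cells is not known here. A low count there is therefore not by itself against the label. Why that count was so low was not tested. Because the reads of Chil1 lay in the library labelled KO, the libraries are named below by their labels. Every direction given below rests on those labels. In the same libraries Ifng, the cytokine gene that defines Th1 cells, had 3479 reads in the library labelled WT and 8718 in the library labelled KO. Whether the labels were exchanged was not tested.

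**Figure D1:**
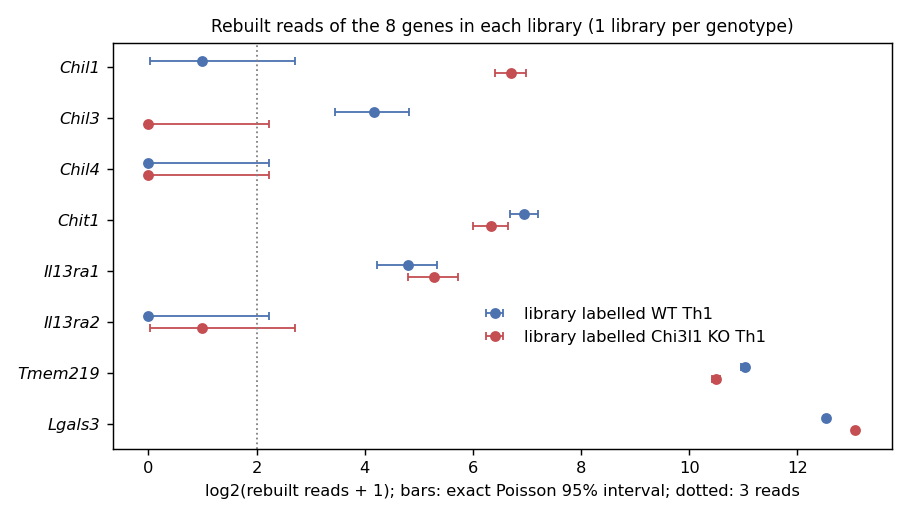
Rebuilt reads of each gene on a log2 (reads + 1) axis, 1 point for each library, with bars for the exact Poisson 95% interval and a dotted line at 3 reads. Chil1 goes from 1 read in the library labelled WT to 103 reads in the library labelled KO, Chil3 goes from 17 reads to 0, and the points of Tmem219 and Lgals3 lie apart in opposite directions.

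At 2-fold on the deposited log2 scale, 1 of the 8 genes was higher in the library labelled KO (Chil1) and 1 was lower (Chil3). Over all genes 4.70% were higher and 5.81% were lower past the same limit, and nothing is read from a count of 1 in each direction. Among genes whose larger log2 value lay from 6 to 8, as that of Chil1 did, 6.60% were 2-fold higher. Among genes whose larger value lay from 4 to 6, as that of Chil3 did, 19.3% were 2-fold lower. A 2-fold lower value was therefore common at the level of Chil3. The median difference of the 8 genes was 0.24 on the log2 scale, beside 0.0 over all genes. With the genes at 0 in both libraries left out, these medians were 0.48 and -0.01. Of all 2-fold differences, 44.7% were higher in the library labelled KO. Scaling to the library totals made this share 56.3%, since it raised the median difference of genes with a larger log2 value of at least 8 from -0.01 to 0.16.

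**Figure D2:**
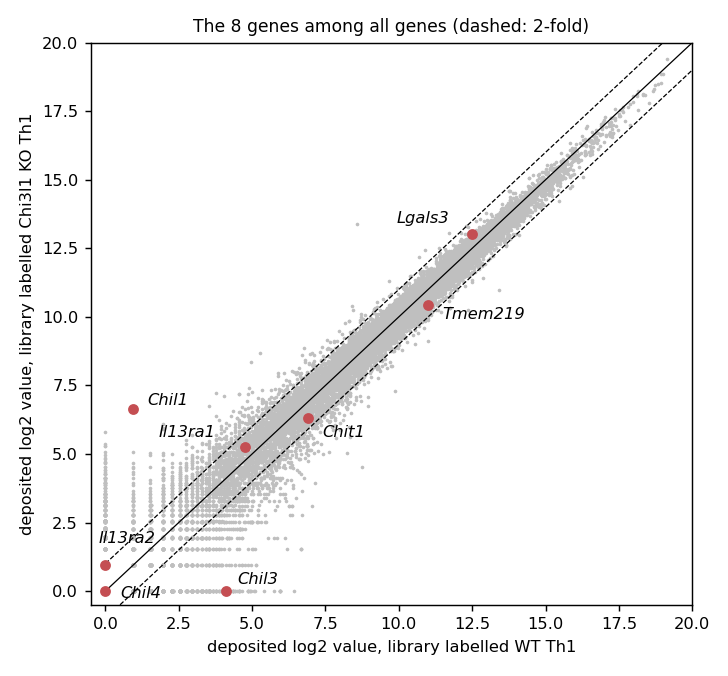
Deposited log2 value of each gene in the library labelled WT (x axis) and in the library labelled KO (y axis), with all 24421 genes in grey, the 8 genes in red, a solid line of equal values and dashed lines at 2-fold. Chil1 lies far above the upper dashed line in a sparse part of the plot, Chil3 lies on the lower edge among many genes at 0 in the library labelled KO, and the other 6 genes lie between the dashed lines.

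Chil1 was next compared with the genes whose pair of values was most like its own, measured as the Euclidean distance between the log2 values over the 2 libraries. The 5 nearest genes were Gm3020 at a distance of 1.16, Arntl2 at 1.24, 2310040G24Rik at 1.25, Plekhb1 at 1.26 and Il17re at 1.57. Arntl2, a circadian transcription factor gene, had 3 reads in the library labelled WT and 62 in the library labelled KO. Il17re, which encodes a chain of the IL-17C receptor, had 1 read and 34 reads, and Plekhb1 had 0 and 57. All 5 were at or below 3 reads in the library labelled WT, being chosen for values like those of Chil1. That none reached its 103 reads follows from Chil1 being the 1 gene within the limits given above.

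The genes around Chil1 were read from the same tables. Mybph, a muscle myosin-binding protein gene that starts 3.27 kb after the end of Chil1, and Adora1, an adenosine receptor gene that lies 9.04 kb after it, each had 0 reads in the library labelled WT and 9 in the library labelled KO, with a lower limit of the counting interval of 1.97 for the ratio of KO to WT. Mybph and Adora1 overlap each other by 2010 bp on opposite strands, and whether counting used strand is not given in the sources used here, so their reads cannot be told apart. Ppfia4, 107 kb after Chil1, went the other way, from 11 reads to 0, with an upper limit of 0.398 for the ratio. Btg2, an antiproliferative gene 103 kb before Chil1, had 3884 and 3151 reads, and Myog and Fmod had 0 in both libraries. Of these 6 neighbours 2 were 2-fold higher, Mybph and Adora1, which may hold the same reads, and 1 was 2-fold lower, beside 4.70% and 5.81% over all genes.

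The bases before the start sites are shown for the 3 chitinase-like genes, because Chil1 and Chil3 were the 2 members past 2-fold and Chil4 is the close copy of Chil3. Each run is the 250 bases upstream of the RefSeq start (GRCm38.p6), 5′ to 3′ on the strand of the gene, for Chil1 at chr1:134181906-134182155 on the plus strand, for Chil3 at chr3:106167565-106167814 on the minus strand and for Chil4 at chr3:106219480-106219729 on the minus strand. Capitals mark matches to the letters TATAAA or TTCNNNGAA.
Chil1: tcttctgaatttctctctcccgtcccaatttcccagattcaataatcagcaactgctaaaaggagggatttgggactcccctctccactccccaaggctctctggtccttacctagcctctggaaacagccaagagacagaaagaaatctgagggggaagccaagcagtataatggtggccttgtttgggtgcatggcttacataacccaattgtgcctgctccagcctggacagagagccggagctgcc
Chil3: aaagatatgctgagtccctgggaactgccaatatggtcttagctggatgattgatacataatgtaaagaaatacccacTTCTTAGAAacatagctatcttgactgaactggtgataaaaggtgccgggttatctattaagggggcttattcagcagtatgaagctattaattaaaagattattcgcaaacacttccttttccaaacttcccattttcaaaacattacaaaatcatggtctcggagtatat
Chil4: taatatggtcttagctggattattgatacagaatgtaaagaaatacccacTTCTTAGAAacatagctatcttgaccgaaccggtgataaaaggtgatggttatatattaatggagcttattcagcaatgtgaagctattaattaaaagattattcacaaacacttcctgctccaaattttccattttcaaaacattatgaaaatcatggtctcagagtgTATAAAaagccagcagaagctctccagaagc
The runs of Chil3 and Chil4 aligned over 221 bases, of which 201 (91.0%) were identical. Both hold TTCNNNGAA, the letters of a STAT binding site with a spacer of 3 bases, at bases 172 to 164 before the start in Chil3 and 200 to 192 in Chil4. Over both strands this motif was in 2306 of 32851 RefSeq promoter windows (7.02%). Chil4 also holds TATAAA at bases 31 to 26 before its start, a motif in 4063 windows (12.4%), and in Chil3 these letters begin with the last 3 bases of the run shown and go on past the annotated start. The run of Chil1 held neither motif, nor TTCNNNNGAA, the STAT letters with a spacer of 4 bases that were in 1923 windows (5.85%) and, among the 8 genes, in that of Lgals3. Il13ra2 was the other member with TATAAA. A match or its absence is a description of these letters only.

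Chil3 (GRCm38 chr3:106147554-106167564, minus strand) encodes Ym1, a chitinase-like protein made in quantity by mouse alternatively activated macrophages and by neutrophils. Its log2 value was 4.13 in the library labelled WT Th1 and 0.0 in the library labelled KO, or 17 reads (9.90 to 27.2) and 0 reads (0 to 3.69). The counting interval of the ratio of KO to WT reached from 0 to 0.242, and Chil3 stood at rank 47 among all genes ordered from the largest fall on the deposited scale. The size of its difference depends on the pseudocount, from -7.37 on the log2 scale with 0.1 to -2.10 with 5, while the reads do not. Chil4 (GRCm38 chr3:106201490-106219507, minus strand), which encodes Ym2 and lies 33.9 kb from Chil3, had 0 reads in both libraries, which allows up to 3 reads in each. In 100-base windows of the transcripts, 3.75% of those of Chil3 were shared exactly with Chil4. Reads from such windows can be counted at either gene. With so small a share, 17 reads of Chil3 need not include any from them. The 0 of Chil4 therefore does not show how shared reads were counted.

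Chit1 (GRCm38 chr1:134111242-134151540, plus strand) encodes chitotriosidase, one of the active chitinases of mammals, and lies 30.6 kb before Chil1. Its log2 value was 6.90 in the library labelled WT and 6.29 in the library labelled KO, from 122 reads (101 to 146) and 80 reads (63.4 to 99.6). The ratio of KO to WT was 0.655, with an interval from 0.488 to 0.875. The counting interval thus lay below 1, while the difference of -0.61 on the log2 scale stayed inside 2-fold and no spread between animals could be set beside it. Across the alternatives of scaling, pseudocount and GC content the difference lay from -0.61 to -0.41. Chil1 and Chit1, although neighbours, differed in opposite directions.

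The other measured members of the family gave mixed values. Of 6 further family genes listed, 5 were in the tables, 4 had a value above 0, 0 were 2-fold higher and 1 was 2-fold lower, with a median difference of 0.0. Chid1, which encodes a chitinase-like lysosomal protein, was the most abundant at 1889 and 1846 reads. Ctbs, a lysosomal chitobiase gene, had 315 reads in the library labelled WT and 378 in the library labelled KO. Ovgp1, an oviduct glycoprotein gene, had 27 and 50, a ratio of 1.85 with an interval from 1.14 to 3.07, and 34.4% of its 100-base windows were shared with Gm42890, so its value is uncertain. The gene past 2-fold was Chia1, which encodes acidic mammalian chitinase, with 7 reads in the library labelled WT and 1 in the library labelled KO. Its ratio of 0.143 had an interval from 0.00317 to 1.11, which holds no change.

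Il13ra2, the gene of the reported Chi3l1 receptor chain, was at or below the detection floor in both libraries. It lies at GRCm38 chrX:147383476-147429192 on the minus strand and had 0 reads (0 to 3.69) in the library labelled WT and 1 read (0.0253 to 5.57) in the library labelled KO. Its log2 values were 0.0 and 0.95, but no fold is given because both counts are under 3 reads. IL-13Rα2 binds IL-13 with high affinity and lacks the signalling tail of the other chain. Il13ra1 (GRCm38 chrX:36112110-36171259, plus strand) encodes that signalling chain, which pairs with IL-4Rα. It had a log2 value of 4.76 in the library labelled WT and 5.24 in the library labelled KO, or 27 reads (17.8 to 39.3) and 38 reads (26.9 to 52.2). The ratio of 1.41 had an interval from 0.836 to 2.39, so a difference of Il13ra1 was not detectable at this depth. Its difference of 0.48 on the log2 scale became 0.26 after removal of the trend with GC content.

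Tmem219 (GRCm38 chr7:126886171-126922917, minus strand), the co-receptor gene, was much more abundant than the chain it is reported to partner. It had a log2 value of 10.98 in the library labelled WT and 10.45 in the library labelled KO, or 2080 reads (1992 to 2171) and 1440 reads (1367 to 1516). The ratio of KO to WT was 0.691 (0.646 to 0.740). The 2 counts did not overlap within counting error, and the difference of -0.53 on the log2 scale became -0.36 with scaling to the library totals and -0.32 with the GC trend removed. Exons of the opposite-strand gene Gm20650 overlap 198 of the 2292 exonic bases of Tmem219, so a share of these reads may belong to either gene.

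Lgals3 (GRCm38 chr14:47367751-47386160, plus strand) encodes galectin-3, a lectin that binds β-galactosides and is made by macrophages and activated lymphocytes. It was the most abundant of the 8 genes, with a log2 value of 12.49 in the library labelled WT and 13.02 in the library labelled KO, or 5933 reads (5783 to 6086) and 8598 reads (8417 to 8782). Lgals3 was higher in the library labelled KO by a ratio of 1.45 (1.4 to 1.5). Its difference of 0.53 on the log2 scale was close in size to that of Tmem219 and opposite in sign, and it lay from 0.53 to 0.71 under every alternative scaling, pseudocount and GC correction run. At this level 2-fold differences were rare: 1.04% of the 6349 genes with a larger log2 value of at least 10 passed 2-fold in either direction. A difference of at least 0.5 on the log2 scale, a size chosen after the values of Tmem219 and Lgals3 were seen, was met by 14.6% of them. These 2 genes therefore differed by more than most genes at their level, but not by an uncommon amount.

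Per kilobase of exon, the 8 genes differed widely in level. In the library labelled WT the order was Lgals3 with 3098 normalized reads per kb, Tmem219 with 880.2, Chit1 with 65.2, Chil3 with 10.1, Il13ra1 with 7.05, Chil1 with 0.329, and then Chil4 and Il13ra2 at 0. The counting intervals of Chil3 and Il13ra1 overlapped, as did those of Chil1, Chil4 and Il13ra2, while the steps between Lgals3, Tmem219, Chit1 and Chil3 were separate. In the library labelled KO the order was Lgals3 with 4482, Tmem219 with 609, Chit1 with 42.7, Chil1 with 35.6, Il13ra1 with 9.90 and Il13ra2 with 0.406, with Chil3 and Chil4 at 0. There Chit1 and Chil1 could not be separated (33.9 to 53.1 against 29.0 to 43.2), and with the longest transcript as the length Chil1 stood above Chit1 at 54.3. Among all genes with a length, 95.4% lay below Lgals3 in the library labelled WT and 97.0% in the library labelled KO. For Tmem219 these shares were 87.3% and 84.1%, and for Chit1 61.0% and 57.8%. Genes at 0 are counted in these shares. Over all 24421 genes, 8980 were at 0 in the library labelled WT and 9048 in the library labelled KO. Chil1 lay above 38.0% of genes in the library labelled WT, little more than the genes at 0, and above 56.7% in the library labelled KO. Even where it was detected, Chil1 thus sat in the lower part of the genes above 0. It was far below both partner genes Lgals3 and Tmem219.

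**Figure D3:**
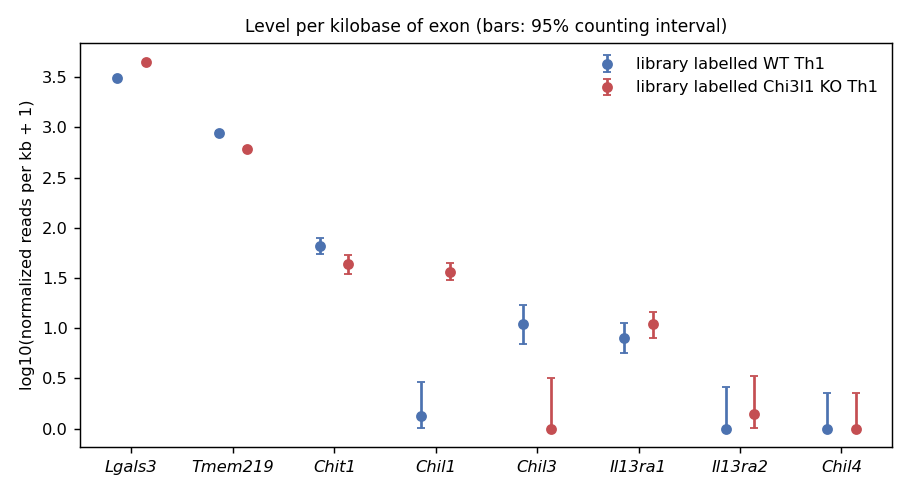
Level of each gene as log10 (normalized reads per kb of exon + 1) in each library, with bars for the 95% counting interval. Lgals3 and Tmem219 stand above the rest in both libraries, and Chil1 reaches the level of Chit1 only in the library labelled KO, at 35.6 against 42.7 normalized reads per kb.

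The remaining genes reported to bind Chi3l1 or to act with it were next examined from listed names. Of 8 other partners, 0 were 2-fold higher and 1 was 2-fold lower, with a median of -0.16. The latter was Itgb5, an integrin β chain gene, with 37 reads in the library labelled WT and 5 in the library labelled KO, a ratio of 0.135 (0.0414 to 0.344). Cd44, the hyaluronan receptor gene, was the most abundant of them per length, at 3110 and 3004 normalized reads per kb, close to the level of Lgals3 in the library labelled WT. Ager, which encodes the receptor RAGE, had 1524 reads in the library labelled WT and 1164 in the library labelled KO, a ratio of 0.763 (0.706 to 0.824). Ptgdr2, which encodes the prostaglandin D2 receptor CRTH2, had 75 and 67, and its ratio had an interval from 0.632 to 1.26. Unlike Il13ra2, several listed partners were thus expressed well above the floor in both libraries.

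Among 7 genes of the IL-4 and IL-13 receptor system, 1 was 2-fold higher, 0 were 2-fold lower and the median was -0.17. Il4ra, the chain shared by the receptors of IL-4 and IL-13, had 1880 normalized reads per kb in the library labelled WT and 1292 in the library labelled KO, against 7.05 and 9.90 for its partner Il13ra1. Its ratio was 0.687 (0.668 to 0.707). Il2rg, the common γ chain gene, was lower too, with 54647 and 40255 reads. The gene past 2-fold was Il4, with 1 read in the library labelled WT and 9 in the library labelled KO, a ratio of 8.99 with an interval from 1.25 to 394, and Il13 had 33 and 43. Of 5 kinases and effectors described downstream of IL-13Rα2, 0 passed 2-fold in either direction and the median was 0.04. The largest of their differences was that of Mapk3, the gene of the kinase ERK1, with 6237 and 3719 reads and a ratio of 0.595 (0.572 to 0.620).

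Other galectin genes were compared with Lgals3. Of 9 listed, 1 was 2-fold higher, 0 were 2-fold lower and the median was 0.22, and the gene past the limit was Lgals12 with 0 and 2 reads, under the floor in both libraries. Lgals9 was the most abundant at 9123 normalized reads per kb in the library labelled WT and 7677 in the library labelled KO, and Lgals1 followed with 4857 and 4605. Lgals3 lay below Lgals1 in the library labelled WT, at 3098, and within counting error of it in the library labelled KO, at 4482. The longest transcript is 800 bp for Lgals1 and 1419 bp for Lgals3, against 903 and 1858 bp of exon. With that length Lgals3 stands above Lgals1 in the library labelled KO, so their order there depends on the length used. The differences, library labelled KO minus library labelled WT, went both ways: beside 0.53 for Lgals3 on the log2 scale, they were 0.29 for Lgals4, 0.24 for Lgals8 and 0.22 for Lgalsl, and -0.08 for Lgals1, -0.10 for Lgals7 and -0.25 for Lgals9. Lgals6, with 91 and 142 reads and a difference of 0.63, is near-identical to Lgals4, so the values of both are uncertain.

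**Figure D4:**
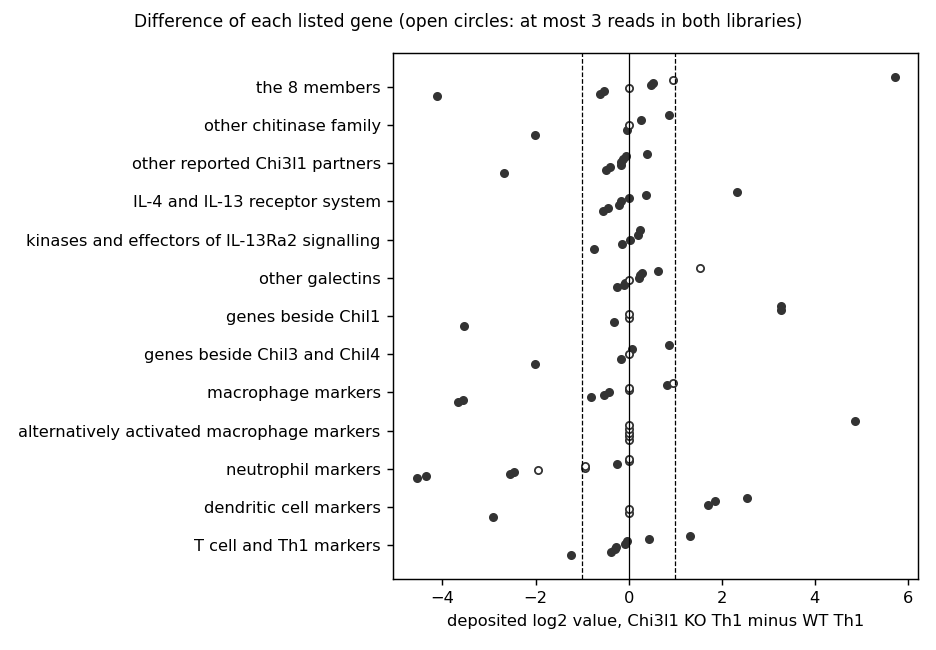
Difference of the deposited log2 values, library labelled KO minus library labelled WT, for each gene of each list shown (1 circle per gene, open where both libraries had at most 3 reads), with dashed lines at 2-fold. Partner, receptor, kinase and galectin genes lie mostly between the dashed lines, whereas neutrophil markers spread to the left. Genes beside Chil1 and markers of macrophages and dendritic cells also reach past these lines, in one or both directions.

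Because chitinase-like genes are known from other cell types, markers of these cells were read in the same libraries. The T cell and Th1 genes were abundant in both, with 106541 reads in the library labelled WT and 105742 in the library labelled KO over 8 genes. Cd3e had 7715 and 7309 normalized reads per kb, and Tbx21, Cd4 and Il12rb2 stayed inside 2-fold. Ifng, the signature Th1 cytokine gene, was 2-fold higher in the library labelled KO (3479 and 8718 reads, ratio 2.50, 2.41 to 2.60), and Cxcr3, a Th1 chemokine receptor gene, was 2-fold lower (273 and 116 reads). The labelled cell type was thus met by its markers in both libraries.

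Of 10 neutrophil markers, 5 were 2-fold lower in the library labelled KO, as Chil3 was, 0 were higher and the median was -1.45. With a pseudocount of 5 the count was 3. Past the same limit 5.81% of all genes were lower, and 19.3% of those with a larger log2 value from 4 to 6. The 10 genes summed to 109 reads in the library labelled WT and 25 in the library labelled KO. Ngp, a neutrophil granule gene, had 23 reads and 0 (upper limit of the ratio 0.174), Elane, the neutrophil elastase gene, had 20 and 0 (upper limit 0.202), and Mpo, the myeloperoxidase gene, had 32 and 5. Camp and Retnlg were at 0 in both libraries, and Lcn2 had 24 and 20. Of 9 macrophage markers 2 were 2-fold lower and 0 were higher, with sums of 717 and 575 reads. Lyz2, the lysozyme gene of myeloid cells, had 34 reads and 2, Cd14 had 12 and 0, and Cd68 had 402 and 299. The defining macrophage markers Adgre1 and Marco were at 0 in both libraries, and Csf1r, with 97 and 174 reads, went the other way. Chil3 was thus detected in the library in which Ngp, Elane, Mpo and Lyz2 were also higher, and the part of other cells in its value was not tested. In bulk RNA, fewer cells of a type and less RNA per cell cannot be told apart.

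Some markers of other cells were higher in the library labelled KO, as Chil1 was. Of 6 markers of alternatively activated macrophages, 5 (Arg1, Retnla, Cd209a, Mgl2 and Clec10a) were at 0 in both libraries, and Mrc1, the mannose receptor gene, had 0 reads and 29, with a lower limit of 7.36 for the ratio. Of 6 dendritic cell markers, 3 were 2-fold higher and 1 was lower, with sums of 76 and 126 reads. Over all genes 4.70% were higher and 5.81% were lower past the same limit. Xcr1, among the 3, had 0 and 5 reads, with a lower limit of 0.915 for the ratio, so its interval holds no change. Flt3 had 18 and 68 and Zbtb46 had 14 and 48, whereas Itgax had 44 and 5, and Clec9a and Siglech were at 0 in both libraries. Among B cell markers, Cd79a, a chain of the B cell receptor, had 267 and 475 reads (ratio 1.78), and Cd79b had 268 and 323 (ratio 1.20). Ms4a1 had 61 and 120 (ratio 1.96), and Pax5, a B cell transcription factor gene, had 95 and 177 (ratio 1.86). Each of these was inside 2-fold on the deposited scale, but whether markers of this list pass that limit depends on the scaling. The part of these cells in the Chil1 value was not tested.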

How the data were processed

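RNA of 1 library per genotype was sequenced. Per the labels, total RNA was extracted with Trizol and libraries were made with the SENSE mRNA-Seq kit. The authors mapped paired reads with TopHat, and the processing notes name edgeR and the build mm10. According to the study's methods, unique and multiple alignments were both counted. The deposited tables hold 1 value per gene symbol, taken here to be log2(normalized count + 1). The study's methods describe FPKM with a global normalization, but the deposited values do not behave as values per length, because low genes of any length lie on the same whole steps. The unit was inferred from these steps: a read is worth about 0.970 in the library labelled WT and 0.969 in the library labelled KO, and of genes with 1 to 20 reads, 97.5% and 97.4% lay within 0.05 of a whole number of reads. Depth and scaling between libraries cannot be checked beyond this.

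Reads were rebuilt as the nearest whole number. The deposited values carry 3 decimals, and the whole steps were checked for genes with 1 to 20 reads. Large counts and the library totals are therefore approximate. Intervals were computed with Python 3.11.15, numpy 2.4.6, pandas 2.3.3 and scipy 1.17.1. Figures were drawn with matplotlib 3.10.9, and promoters were aligned with Biopython 1.88. The rebuilding was tested on simulated data. The 2-fold limit was tested there only on large planted changes in genes with many reads. How often unchanged genes, or genes with few reads, pass it was not tested. Positions and exon lengths came from the GENCODE M21 annotation of GRCm38, where 95.7% of the symbols were found. Promoters came from RefSeq (GRCm38.p6). Genes were named by rule: all 8 members, from each other list those past 2-fold with at least 20 reads in the higher library and otherwise the 2 or 3 with the highest level, and the 5 nearest to Chil1 in the log2 values. Listed genes named besides these were chosen after their values were seen. The members and the 14 lists, the members among them, were chosen with earlier results of these data known. Alternatives were 2 other pseudocounts, 3 other scalings, removal of the GC trend, other fold limits, a filter on low values, the longest transcript as length and, added after the data were seen, the ratio of rebuilt reads without a pseudocount. A planned comparison of proteins was not run, 1 listed gene and the summary of its list are not reported here, and the naïve libraries of the study were not analysed here.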

Additional observations from a re-analysis of the deposited data

How the results depend on the processing

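With 1 library per genotype, leaving out a library was not possible and the limits of depth are those of single reads: Chil4 and Il13ra2 cannot be told from 0. No paired analysis was possible because each genotype has 1 library and no test was made. The differences of the 6 members with more than 3 reads kept their sign in 24 of 24 alternatives of scaling or GC content. For Chil1, with 1 read against 103, and Chil3, with 17 against 0, none of these settings could have turned it. Of all alternatives, pseudocounts included, 6 put the value outside its counting interval. The difference of Chil1 was 4.15 with a pseudocount of 5. That of Tmem219 was -0.36 with scaling to the library totals and -0.32 with the GC trend removed, and that of Lgals3 was 0.70 and 0.71 under the same settings and 0.63 with quantile normalization. The members past the limit in the library labelled KO were 2 with a pseudocount of 0.1 and 2 at 1.5-fold, where Il13ra2 with its 1 read joined Chil1, and 2 were lower at 1.5-fold, where Chit1 joined Chil3. Over all genes, 1147 were higher and 1418 lower. A limit of 1.5-fold gave 2345 and 2795, a limit of 3-fold gave 573 and 733, a pseudocount of 5 gave 532 and 707, and a minimum log2 value of 4 in the higher library gave 476 and 630. For the other lists 206 of 234 counts stayed within 1.5 times and 28 moved. Counts of 0 that stayed at 0 are among the 206 and say little about stability. With a pseudocount of 5, 3 neutrophil markers in place of 5 were lower. The cause of these moves was not tested.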
